A study of Homo sapiens with 16 samples.

Results

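The response to NEL was measured in KG1A, a human acute myeloid leukaemia line of immature, CD34-positive cells. All genes that passed a filter for low counts within the 8 KG1A libraries were included, which kept 14250 of the 34618 genes in the table. Of these libraries, 4 came from cells given NEL at 10 µM and 4 from cells given the vehicle DMSO, both grown in medium with dialyzed serum. The study holds 16 libraries, and the other 8 are of U937, a promonocytic leukaemia line treated in the same way. The labels name no engineered change in either line, give no treatment time and do not say how many cultures stand behind the 4 libraries of a group. The labels do not spell NEL out, and it is read here as nelarabine because of what is known of the study. KG1A is a single established line, so the values describe that line and not the disease in general.

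Nelarabine is a prodrug of araG, a guanine nucleoside analogue that cells phosphorylate and that can block DNA synthesis, and it is known chiefly for its action on T lymphoblasts. KG1A cells carry the stem and progenitor marker CD34, differentiate poorly in culture and also express some genes of the lymphoid lineages. Loss of progenitor transcription factors and gain of adhesion receptors, cytokine receptors and myeloid enzymes are the usual signs of maturation in this lineage. The comparison asked which transcripts of KG1A differed between NEL and vehicle, mainly outside the genes of nucleotide metabolism and the cell cycle.

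Expression is given as CPM, the reads of a gene scaled to a fixed library total, adjusted by the TMM factors of the KG1A fit. Total counts ran from 10641567 to 11049006 per library, so that a count of 0 allows up to 0.272 to 0.282 CPM, for counting error only. The first principal component, with 71.4% of the variance, separated NEL from DMSO, and the second, with 13.9%, separated libraries 1 and 3 from libraries 2 and 4 in both groups. The labels name no batch for these sets. The odd-numbered libraries had mitochondrial shares of 10.4 and 9.20% with DMSO and 9.94 and 8.91% with NEL, and the even-numbered ones 8.68 and 8.24%, and 7.96 and 7.34%. With the mean difference between the sets removed, the chi-square per gene averaged 0.844 to 1.20 for libraries 1 and 2, or 3 and 4, of the same group, which is close to counting noise, and 1.11 to 1.78 for libraries 1 and 4, or 2 and 3. The number of separate samples in a group may therefore be only 2, in which case the sets repeat the same samples, so n = 4 counts libraries and p-values measure the spread between them.

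**Figure D1:**
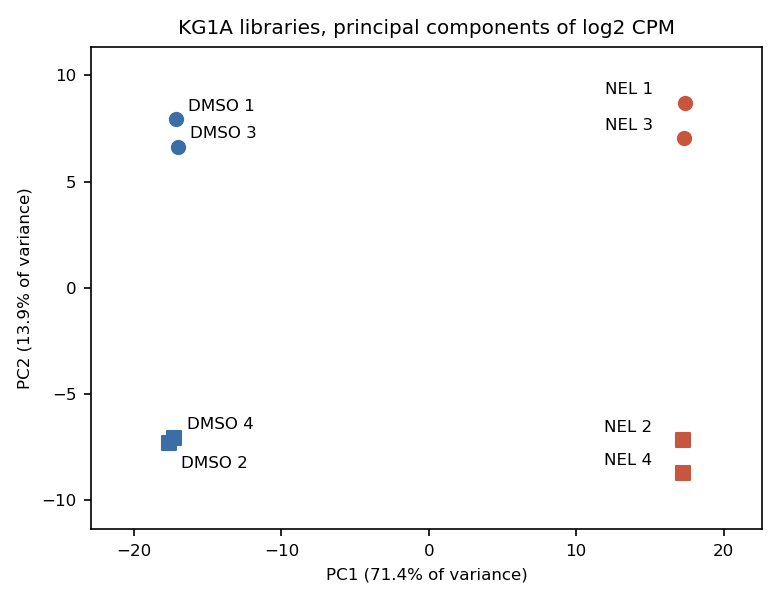
Principal components of log2 CPM for the 8 KG1A libraries, PC1 on the horizontal and PC2 on the vertical axis, with blue for DMSO, red for NEL, circles for odd-numbered and squares for even-numbered libraries. PC1 (71.4% of the variance) separates the treatments, and PC2 (13.9%) separates libraries 1 and 3 from 2 and 4.

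Defining markers of an immature CD34-positive line were present. CD34 lay between 9135 and 9951 counts per library with DMSO and between 10125 and 11444 with NEL. The progenitor genes MYB, GATA2 and LYL1 had means of 335, 163 and 167 CPM with DMSO. SPN, also listed as a marker of the line but not restricted to progenitors, had a mean of 537 CPM. CD33, a myeloid surface marker, had only 1 to 5 counts per library with DMSO and 5 to 21 with NEL. S100A8, MNDA and FCGR1A, which mark mature monocytes and neutrophils, had no count in any of the 8 libraries, and CD14 had 0 to 4. The lymphoid genes CD3D and CD7 were expressed, at 119 and 59.0 CPM with DMSO, whereas the B cell gene MS4A1 had no count in any library. Globin genes, PF4, PPBP, CDH5, COL1A2 and EPCAM were at 0 throughout. Other markers of these lineages were expressed. The megakaryocyte gene ITGA2B had means of 501 CPM with DMSO and 589 CPM with NEL, and the B cell gene PAX5 6.03 and 9.77 CPM.

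About equal numbers of genes rose and fell with NEL, but the large changes were mostly increases. By edgeR's quasi-likelihood test at a Benjamini-Hochberg adjusted p under 0.05, 3369 of 14250 genes (23.6%) were higher and 3360 (23.6%) were lower, together 6729 genes (47.2%). All 4 NEL libraries lay outside the range of the DMSO libraries for 3042 genes higher with NEL (21.3%) and for 2998 lower (21%). At least 2-fold changes were found for 398 higher genes (2.79%) and 89 lower genes (0.625%). The called increases had a median log2 fold change of 0.41, with quartiles of 0.26 and 0.70, against -0.30 for the decreases, with quartiles of -0.45 and -0.21. The odd-numbered libraries alone gave 3207 higher and 3178 lower genes, the even-numbered alone 3288 and 3203, and sums of libraries 1 and 2 and of 3 and 4 gave 4063 and 4000.

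Direction went with expression level. Among the 2850 genes of lowest mean CPM, 20.5% rose and 9.86% fell. Large changes of both directions were common there, with 248 of the 398 at least 2-fold increases and 62 of the 89 decreases. Among the 2850 genes of highest mean CPM, from 88.4 CPM upward, 21.3% rose and 41.4% fell, and the median log2 fold change was -0.07. Of 11531 protein-coding genes, 26% rose and 24.8% fell, and of 2296 long non-coding RNA genes 13.3% rose and 17.7% fell. The longest genes leaned down, with 23.9% higher and 30.8% lower among those spanning 82937 bases or more, and so did the shortest, with 15.3% and 22.9% among those of up to 6494 bases. Level, length and gene class overlap, and their separate parts in these shares were not tested.

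**Figure D2:**
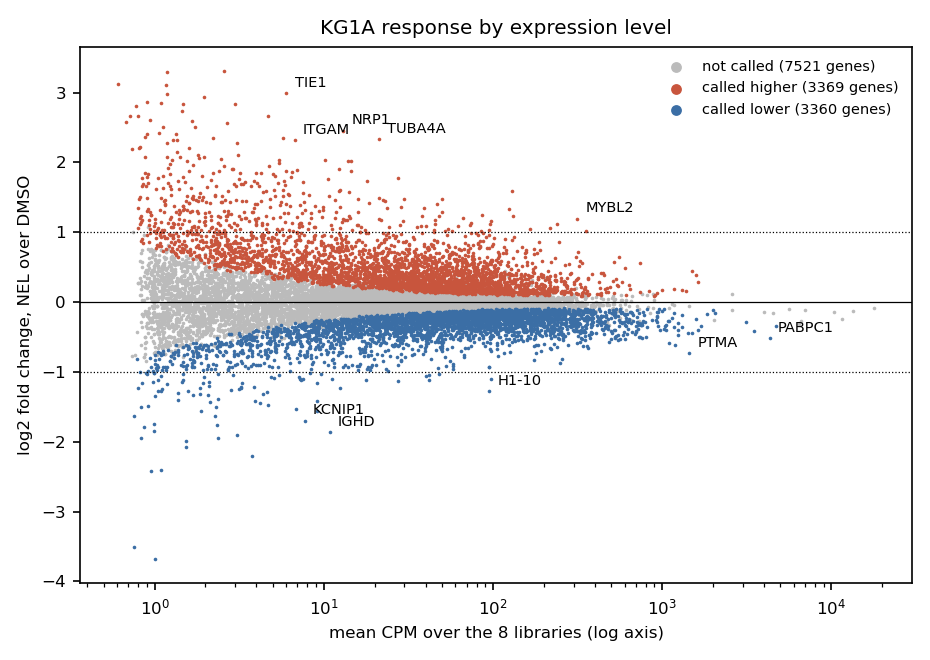
Log2 fold change of NEL over DMSO (vertical axis) against the mean CPM of the 8 KG1A libraries (horizontal log axis) for 14250 genes, with red for the 3369 called higher, blue for the 3360 called lower and grey for the rest, and dotted lines at 2-fold. Large changes of both directions lie mainly at low CPM, and the most abundant transcripts lie mainly below 0.

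The largest increase among named genes reaching 5 CPM was that of TIE1, a receptor tyrosine kinase of endothelium and blood stem cells (chromosome 1, 43766664 to 43788779, hg19). TIE1 had 0.949, 1.03, 1.96 and 1.38 CPM in DMSO libraries 1 to 4 and 13.4, 9.89, 9.59 and 9.82 CPM in NEL libraries 1 to 4. The groups did not overlap, which the rule for choosing the largest changes required, and NEL library 1 was the highest. The increase was 7.96-fold, a log2 fold change of 2.99 ± 0.20 (SE), with an edgeR adjusted p of 4.26e-09. In the odd-numbered and even-numbered libraries alone the log2 fold changes were 2.97 and 3.03. SHE, an SH2 domain adaptor gene, went from 0.949, 1.77, 1.31 and 1.01 to 7.97, 7.15, 8.57 and 8.74 CPM, which is a 6.37-fold increase (adjusted p = 5.20e-09). By the same rule, each NEL library of SHE lay above the highest DMSO library. Other endothelial marker genes are given with the lineage genes.

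Promoters of 3 of these genes are shown because the data give each a clear increase from a low level, in a receptor, a tubulin and an integrin. The windows run from 250 bases before to 50 bases after the RefSeq start (build GRCh38.p14), 5′ to 3′ on the gene's strand. Capitals mark a match, on either strand, to TGANTCA (AP-1), CCGGAAGT (ETS), TGTGGT (RUNX), CACGTG (E-box) or GGGCGGGG (SP1). TIE1 is from chr1:43300732-43301031 (plus strand), TUBA4A from chr2:219253869-219254168 (minus strand) and ITGAM from chr16:31259725-31260024 (plus strand).
TIE1: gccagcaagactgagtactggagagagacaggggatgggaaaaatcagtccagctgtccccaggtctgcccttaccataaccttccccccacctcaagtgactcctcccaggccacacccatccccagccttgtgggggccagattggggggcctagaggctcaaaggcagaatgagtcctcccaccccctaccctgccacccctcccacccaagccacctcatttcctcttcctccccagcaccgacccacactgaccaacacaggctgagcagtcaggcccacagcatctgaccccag
TUBA4A: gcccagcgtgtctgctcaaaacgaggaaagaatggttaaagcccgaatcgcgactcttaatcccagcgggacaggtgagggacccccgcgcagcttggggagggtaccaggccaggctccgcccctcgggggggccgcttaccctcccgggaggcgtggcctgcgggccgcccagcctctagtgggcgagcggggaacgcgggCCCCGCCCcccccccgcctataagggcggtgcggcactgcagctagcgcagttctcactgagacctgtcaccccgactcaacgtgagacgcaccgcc
ITGAM: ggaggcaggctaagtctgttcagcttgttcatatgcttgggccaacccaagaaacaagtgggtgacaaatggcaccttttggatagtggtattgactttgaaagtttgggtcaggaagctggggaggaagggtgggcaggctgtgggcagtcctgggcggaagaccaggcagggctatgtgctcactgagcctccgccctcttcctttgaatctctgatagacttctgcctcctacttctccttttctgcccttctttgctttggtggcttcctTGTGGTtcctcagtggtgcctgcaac
The TUBA4A window held the SP1 letters, starting at -47 from the start site, and the ITGAM window the RUNX letters, starting at 25. None of the 5 motifs was in the TIE1 window. Over the 10248 tested genes with a promoter in the table, the SP1 letters were in 37.2%, the RUNX letters in 9.62% and the ETS letters in 9.08%. Over the 262 promoters of genes at least 2-fold higher, they were in 29.8%, 13.4% and 1.15%, the AP-1 letters were in 6.87% against 4.39% of tested genes, and the E-box letters in 4.2% against 10.1%. Over all 27305 promoters, the SP1, RUNX, ETS, AP-1 and E-box letters were in 22.9%, 13.1%, 4.44%, 7.76% and 7.43%. Over the 53 promoters of genes at least 2-fold lower, they were in 32.1%, 5.66%, 5.66%, 5.66% and 3.77%. These shares are descriptions, and genes of low expression are common among the 2-fold increases.

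Several receptors, motors and enzymes rose more than 4-fold. NRP1, a co-receptor for VEGF and semaphorins (chromosome 10, 33466420 to 33625190), went from 4.08, 5.23, 3.27 and 3.41 CPM to 21.6, 22.3, 20.9 and 22.97 CPM, a 5.48-fold increase (log2 2.45 ± 0.12, adjusted p = 1.08e-10). TUBA4A, an alpha-tubulin isotype gene (chromosome 2, 220114433 to 220142892), went from 7.68, 6.72, 6.82 and 6.92 CPM to 35.9, 36.8, 36.4 and 32.8 CPM, 5.04-fold (log2 2.33 ± 0.08, adjusted p = 4.17e-12). The 4 NEL values of each gene lay close together and far above the DMSO values. ITGAM, the CD11b chain of a myeloid integrin (chromosome 16, 31271311 to 31344213), went from 2.37, 2.43, 1.49 and 2.67 to 10.4, 11.8, 12.3 and 10.5 CPM (log2 2.32 ± 0.15, adjusted p = 3.24e-09). PREX1, an exchange factor that activates Rac, went from 5.7 ± 0.778 to 23.2 ± 1.95 CPM (SD, n = 4), 4.07-fold (adjusted p = 2.88e-10). MYO7A, an unconventional myosin, rose 5.08-fold from 1.89 ± 0.522 to 9.67 ± 0.971 CPM, and STYK1, a kinase-like membrane protein, 4.11-fold from 3.99 ± 0.628 to 16.4 ± 1.56 CPM. HDC, which makes histamine, rose 4.83-fold, the chemokine receptor CXCR3 4.1-fold, the transporter SLC45A3 4.3-fold and DBNDD1 7.13-fold. All of these genes were below 10 CPM with DMSO.

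Of the 12 largest decreases, IGHD, the constant region of the IgD heavy chain, stood first (chromosome 14, 106303099 to 106312010). IGHD had 16.6, 20.4, 14.01 and 17.1 CPM with DMSO and 6.16, 4.42, 4.61 and 3.6 CPM with NEL, a 3.62-fold fall (log2 -1.86 ± 0.15, adjusted p = 8.29e-08). The B cell kinase BLK fell 2.68-fold, from 5.7 ± 0.929 to 2.12 ± 0.605 CPM. H1-10, a linker histone (chromosome 3, 129033615 to 129035120), was the most abundant gene of the 12. H1-10 had 138, 121, 148 and 131 CPM with DMSO and 56.1, 52.4, 56.04 and 57.5 CPM with NEL, a 2.42-fold fall (log2 -1.28 ± 0.06, adjusted p = 7.40e-11). KCNIP1, a potassium channel subunit, fell 3.24-fold, DPH6, a diphthamide synthesis enzyme, 2.95-fold, and TRDMT1, a tRNA methyltransferase, 2.68-fold. PSRC1, a microtubule-associated protein, fell 2.88-fold, and DEPTOR, an inhibitor of mTOR, 2.48-fold, from 6.28 ± 0.838 to 2.53 ± 0.24 CPM. EPM2A, the glycogen phosphatase laforin, fell 2.35-fold, and TCP11L2, HDDC3 and MFSD3 fell 2.71-fold, 2.23-fold and 2.2-fold.

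Of the 24 genes with the largest changes, 7 overlap another gene with at least 100 counts over the 8 libraries. The library kit kept strand, but whether strand was used in counting is not given in the sources used here. TUBA4A overlaps STK16 on the opposite strand, which had a log2 fold change of -0.34, HDDC3 overlaps UNC45A (-0.01) and H1-10 overlaps its antisense gene H1-10-AS1 (-1.11). NRP1 overlaps an unnamed opposite-strand locus with a log2 fold change of 2.97, on only 104 counts. Reads of such pairs may not be told apart.

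**Figure D3:**
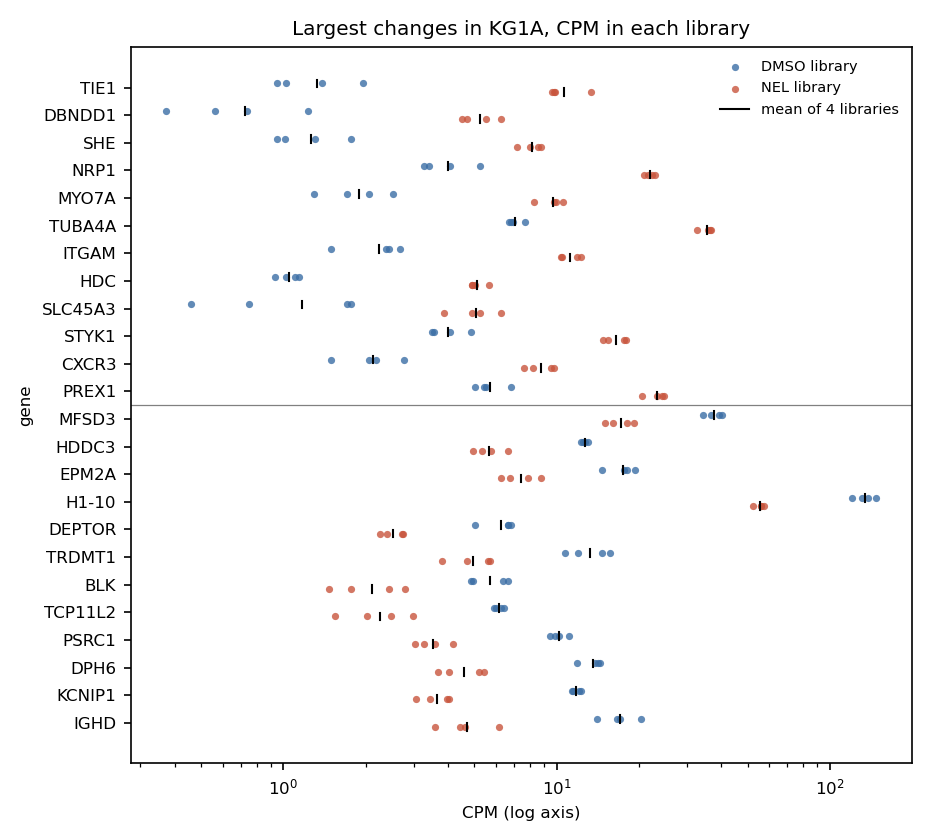
CPM of each KG1A library (horizontal log axis) for the 12 largest increases, above the grey line, and the 12 largest decreases, below it, with blue for DMSO, red for NEL and black bars for the mean of 4 libraries. The 4 NEL libraries lie apart from the 4 DMSO libraries for every gene shown, by the rule that chose them.

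Gene groups are described by 47 lists with at least 5 tested members, each given with its number tested, its counts of called genes and its median log2 fold change. These counts stand beside the 23.6% of tested genes called in each direction and the median of -0.0045 over all of them. Among the 2850 genes of highest mean CPM, however, 21.3% rose and 41.4% fell, and among the 2850 of lowest, 20.5% and 9.86%. The lists were not matched for expression level, and its part in their leans was not tested. A gene that passed the filter only through its higher group had to differ, which limits lists where many members failed the filter. The lists lean in different directions, from 71.4% higher among monocyte and neutrophil products to 80% lower among linker and variant histones. On the deposited RPKM scale, where 64.5% of all calls were increases against 50.1% here, 23 of the lists' counts moved by over 1.5 times. Bulk libraries cannot tell a change in the share of cells that express a gene from a change of RNA per cell.

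**Figure D4:**
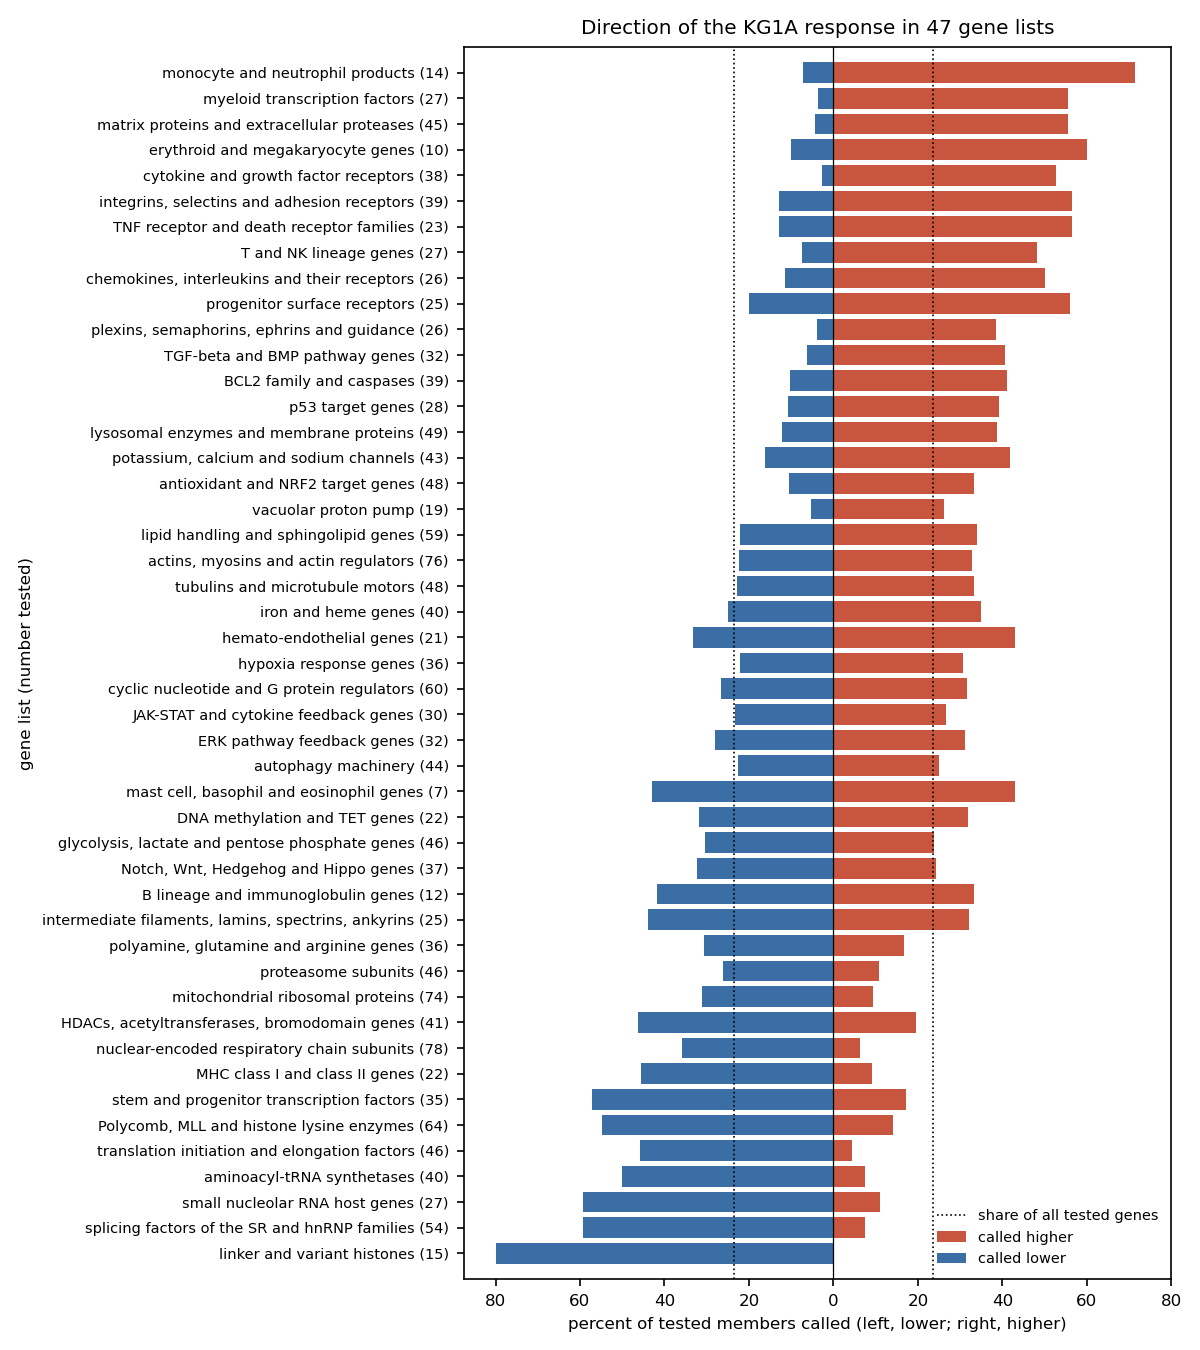
Percent of the tested members of 47 gene lists called higher (red, right) or lower (blue, left) with NEL in KG1A, with the number tested in parentheses and dotted lines at the 23.6% of all tested genes called in each direction. Monocyte and neutrophil products reach 71.4% to the right, and linker and variant histones 80% to the left.

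Transcription factors of stem and progenitor cells leaned down, and those of myeloid cells leaned up. Of 35 stem and progenitor factors tested (of 44 in the list), 20 fell and 6 rose, with a median log2 fold change of -0.20. BCL11A, a repressor of progenitor and lymphoid cells, had 136, 138, 134 and 135 CPM with DMSO and 82.2, 80.1, 80.5 and 76.2 CPM with NEL, a 1.7-fold fall (adjusted p = 2.59e-10). HOXA9, a homeobox factor that maintains leukaemic self-renewal, had 256, 265, 256 and 260.2 CPM and then 196, 189.9, 197 and 202 CPM, 1.32-fold lower (adjusted p = 9.05e-08). In both genes every NEL library lay below every DMSO library. Against that direction, NFE2, a factor of megakaryocytes and erythroid cells, rose 1.62-fold, and the progenitor gene BAALC 1.32-fold. None of the 35 reached 2-fold.

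Of 27 myeloid transcription factors, 15 rose and 1 fell (median 0.31), or 19 and 2 with the replicate number as a block. CEBPA, which directs granulocyte differentiation, went from 21.2, 20.3, 21.5 and 20.1 CPM to 33.4, 28.97, 33.5 and 29.6 CPM (log2 0.59 ± 0.07, adjusted p = 3.56e-06), and the AP-1 subunit JUNB from 31.6, 28.8, 31.8 and 32.4 CPM to 45.1, 44.6, 44.3 and 44.96 CPM (log2 0.52 ± 0.06, adjusted p = 9.54e-07). CEBPA was higher in the odd-numbered than in the even-numbered NEL libraries, but all 4 exceeded the DMSO values. IRF5, an interferon regulatory factor, fell, with a log2 fold change of -0.32 ± 0.07.

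Most products of mature myeloid cells that could be tested rose, many from low levels. Of 50 listed genes only 14 passed the filter, of which 10 rose, 6 of them at least 2-fold, and 1 fell (median 0.74). A gene that passed only through its NEL libraries had to differ, so this count is no support of its own. ITGAX, the CD11c integrin chain, went from 3.51, 3.27, 2.9 and 2.21 CPM to 8.33, 8.3, 9.03 and 8.38 CPM (log2 1.52 ± 0.14, adjusted p = 2.02e-07). MSR1, a macrophage scavenger receptor, fell 1.32-fold from 24.2 ± 1.43 to 18.4 ± 0.582 CPM. The 9 genes fixed as markers of mature monocytes and neutrophils summed to 9.34 to 11 CPM with DMSO and 23.5 to 26.5 CPM with NEL. Only 3 of them passed the filter, and ITGAM and ITGAX were the 2 that rose. The third, CYBB, was not called, with means of 4.84 CPM with DMSO and 4.71 CPM with NEL. S100A8, FCGR1A and MNDA were at 0 in every library. The part of these markers' cells in the results was not tested.

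Progenitor surface receptors moved both ways. Of 25 tested, 14 rose and 5 fell (median 0.24). CD38, an ectoenzyme that is low on immature stem cells, went from 4.93, 5.23, 4.3 and 5.07 CPM to 13.3, 9.89, 12.4 and 11.8 CPM, 2.42-fold higher (adjusted p = 3.12e-07), and IL6ST, the gp130 signalling chain, rose 1.38-fold from 86.9 ± 1.91 to 120.1 ± 3.62 CPM. CD96, a receptor found on leukaemic stem cells, fell 1.21-fold from 873 ± 12.9 to 719 ± 14.8 CPM, and CRHBP, a stem cell-associated binding protein, 2.1-fold from 9.7 ± 1.12 to 4.61 ± 0.40 CPM. CD34 itself had 944, 868, 923 and 842 CPM with DMSO and 1036, 894, 1028 and 943 CPM with NEL, and the groups overlapped. Its log2 fold change was 0.12 ± 0.05 with an edgeR adjusted p of 0.0499. That call was lost in 5 of the 8 fits without 1 library, those without DMSO library 2 (adjusted p = 0.126), 3 (0.058) or 4 (0.152) and without NEL library 1 (0.133) or 3 (0.134). KIT, the stem cell factor receptor, had 2.47, 2.05, 1.96 and 2.03 CPM and then 3.98, 2.65, 2.77 and 2.97 CPM, a log2 fold change of 0.54 ± 0.19 (adjusted p = 0.0294). The KIT call was lost in the odd-numbered (adjusted p = 0.0674) and even-numbered libraries alone (0.211), and without DMSO library 2 (0.0608), 3 (0.0701) or 4 (0.0644) or NEL library 1 (0.117).

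Hemato-endothelial genes were split. Of 21 tested, 9 rose and 7 fell (median 0.02), and 3 increases but no decrease reached 2-fold. TIE1 and SHE, given above, led the increases. ANGPT1, the ligand of the TIE2 receptor, was abundant and fell 1.54-fold, from 204, 215, 213 and 216 CPM to 131, 139, 138 and 141 CPM (adjusted p = 1.47e-09). CD93, a surface glycoprotein of progenitors and endothelium, fell 1.22-fold from 214 ± 4.32 to 175 ± 3.96 CPM. The endothelial markers that were analysed summed to 53.4 to 56.9 CPM with DMSO and 73.6 to 79.8 with NEL, mostly EMCN (means of 45.5 and 65.0 CPM), while CDH5 was at 0 and KDR had at most 1 count in a library.

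Genes of T and NK cells and of megakaryocytes rose more often than they fell, and mast cell and B cell genes went both ways. Of 27 T and NK genes tested (of 52 in the list), 13 rose and 2 fell (median 0.15), or 15 and 5 with the replicate block. GZMA, a granzyme of cytotoxic granules, had 5.12, 6.07, 5.89 and 4.98 CPM with DMSO and 20.9, 20.1, 22.7 and 25.9 CPM with NEL, 4.05-fold higher (adjusted p = 4.03e-10), and NKG7, a granule membrane protein, went from 46.3 ± 1.68 to 99.8 ± 8.79 CPM (adjusted p = 4.39e-10). TOX and LEF1, which act in developing T cells, fell 1.14-fold and 1.17-fold. The 9 T and NK markers summed to 244 to 257 CPM with DMSO and 288 to 325 with NEL, and NKG7 made up most of that difference. CD3E rose from a mean of 27.6 to 37.0 CPM, while CD3D (119 and 108 CPM) and CD7 (59.0 and 56.9 CPM) did not pass the test. CD2, GNLY and KLRD1 had at most 1 count in a library, and the part of such cells in these counts was not tested.

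CPA3, a mast cell protease, had 72.3, 64.1, 74.6 and 71.7 CPM and then 185, 171, 192 and 167 CPM, a 2.53-fold increase (adjusted p = 3.67e-11). In the same list of 7 tested genes 3 rose and 3 fell, the latter including HPGDS, which makes prostaglandin D2 (1.39-fold), and the factor GATA2 (1.34-fold). SELP, the platelet adhesion receptor P-selectin, rose 2.99-fold from 2.17 ± 0.354 to 6.53 ± 0.8293 CPM, and 6 of 10 erythroid and megakaryocyte genes rose while 1 fell. The gene that fell was TUBB1, a platelet beta-tubulin, whose edgeR adjusted p was 0.0924 with the odd-numbered libraries alone and 0.0554 with the even-numbered ones. Of 12 B lineage genes tested, 4 rose, led by the surrogate light chain IGLL1 (1.55-fold, from 64.7 ± 4.85 to 100.2 ± 4.17 CPM) and CD72, and 5 fell, led by IGHD and JCHAIN, the joining chain (1.31-fold).

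Adhesion receptors rose more often than they fell. Of 39 integrins, selectins and other adhesion genes, 22 rose and 5 fell (median 0.17). ICAM1, the ligand of the CD11a and CD11b integrins, had 22.4, 26.04, 22.4 and 24.7 CPM with DMSO and 53.1, 50.8, 48.6 and 50.99 CPM with NEL, 2.13-fold higher (adjusted p = 8.01e-10). The abundant ITGA4, a chain of VLA-4, fell 1.18-fold from 331 ± 15.2 to 279.5 ± 10.1 CPM, and SELPLG, the P-selectin ligand, 1.16-fold from 172 ± 3.88 to 148 ± 1.46 CPM. Guidance genes had 10 increases and 1 decrease among 26, with PLXND1, a plexin, rising 1.49-fold beside NRP1, and SEMA3A, a ligand of NRP1, falling 1.25-fold from 58.4 ± 3.62 to 46.7 ± 1.03 CPM. With the replicate block the guidance counts were 11 and 2, and only 26 of 52 listed guidance genes passed the filter.

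Receptors for cytokines and for TNF ligands rose widely. Of 38 cytokine and growth factor receptors, 20 rose and 1 fell (median 0.18), or 20 and 3 with the replicate block. IL4R, the interleukin 4 receptor chain, had 13.2, 12.3, 14.1 and 13.6 CPM with DMSO and 29.6, 28.5, 31.4 and 30.5 CPM with NEL, 2.26-fold higher (adjusted p = 1.89e-09), and IL18RAP, an accessory chain of the interleukin 18 receptor, rose 1.63-fold from 138 ± 4.23 to 224 ± 12.9 CPM. Of 23 TNF family genes, 13 rose and 3 fell (median 0.47). TNFRSF1B, the second TNF receptor, had 12.6, 14.5, 12.5 and 13.6 CPM and then 32.5, 36.5, 32.7 and 34.1 CPM, 2.55-fold higher (adjusted p = 4.39e-10), whereas TNFRSF1A, the death domain TNF receptor, fell 1.18-fold from 138 ± 9.24 to 117 ± 5.17 CPM. TNFSF13B, the B cell factor BAFF, fell 1.31-fold, and the costimulatory receptor TNFRSF4 rose 2.01-fold.

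Among chemokines, interleukins and their receptors, 13 of 26 tested (of 52 in the list) rose and 3 fell (median 0.30), or 14 and 5 with the replicate block. CXCR3, named above, went from 2.12 ± 0.522 to 8.77 ± 1.04 CPM (adjusted p = 5.33e-08). VEGFA, the growth factor that binds NRP1, fell 1.42-fold from 39.6 ± 1.37 to 27.99 ± 1.6 CPM. Antigen presentation went the other way, with 10 of 22 MHC pathway genes lower and 2 higher (median -0.11), or 6 lower and 3 higher on the RPKM scale. ERAP2 and ERAP1, which trim peptides for class I molecules, fell 1.45-fold and 1.35-fold, from 84.8 ± 2.48 to 58.5 ± 3.91 CPM and from 70.7 ± 2.62 to 52.5 ± 1.74 CPM. CTSS, a lysosomal protease of the class II pathway, rose 1.62-fold, and MICB, a stress ligand of NK cells, 1.37-fold.

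Signalling pathways inside the cell showed members in both directions. Of 32 ERK feedback genes, 10 rose and 9 fell (median 0.10), but 8 rose and 9 fell in the even-numbered libraries alone. The phosphatases DUSP4 and DUSP5 rose 2.08-fold and 1.81-fold, from 5.23 ± 0.791 to 10.9 ± 0.843 CPM and from 9.77 ± 1.08 to 17.7 ± 2.11 CPM, and NF1, which switches RAS off, fell 1.19-fold from 157 ± 2.51 to 132 ± 1.9 CPM. Of 30 JAK-STAT genes, 8 rose and 7 fell (median -0.04, positive on the RPKM scale), but 7 rose and 8 fell in the even-numbered libraries alone. SOCS1, a feedback inhibitor, rose 1.99-fold from 8.23 ± 1.66 to 16.4 ± 2.66 CPM, and STAT5B and STAT5A, the factors downstream of many cytokine receptors, fell 1.47-fold and 1.26-fold, from 178 ± 11.6 to 121 ± 7.61 CPM and from 215 ± 4.12 to 171 ± 2.76 CPM.

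TGF-beta and BMP genes had 13 increases and 2 decreases among 32 (median 0.15), or 16 and 6 with the replicate block. LTBP1, which holds latent TGF-beta in the matrix, rose 2.65-fold from 2.19 ± 0.734 to 5.84 ± 0.531 CPM, and the ligand GDF11 1.53-fold. Of 37 Notch, Wnt, Hedgehog and Hippo genes, 9 rose and 12 fell (median -0.04), and on the deposited RPKM scale 10 rose and 9 fell. WWTR1, the Hippo effector TAZ, rose 1.57-fold from 17.9 ± 1.54 to 28.00 ± 1.86 CPM, and GLI2 and RBPJ, the transcription factors of the Hedgehog and Notch pathways, fell 1.29-fold and 1.2-fold.

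Ion channel genes rose in 18 and fell in 7 of 43 cases (median 0.17). CACNB4, a calcium channel subunit, had 25.04, 22.5, 20.6 and 23.3 CPM with DMSO and 41.1, 38.9, 40.9 and 42.3 CPM with NEL, 1.78-fold higher, and ATP2A3, the SERCA3 calcium pump, rose 1.56-fold. Regulators of cyclic nucleotides and G proteins were near balance, with 19 higher and 16 lower of 60, and 17 and 19 in the even-numbered libraries alone. The adenylyl cyclase ADCY3 rose 1.36-fold from 65.4 ± 2.41 to 89.2 ± 1.63 CPM, and the G protein subunits GNAQ and GNG11 fell 1.29-fold and 1.57-fold.

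Genes of the cytoskeleton moved in both directions. Of 48 tubulin and motor genes, 16 rose and 11 fell (median 0.08). Beside TUBA4A, the microtubule-associated MAP1A rose 3.21-fold from 2.8 ± 0.315 to 9.02 ± 0.659 CPM, and the kinesin KIF21B and epsilon-tubulin TUBE1 fell 1.51-fold and 1.38-fold. Of 76 actin and myosin genes, 25 rose and 17 fell (median 0.04), and 29 and 10 on the RPKM scale. ACTN1, the crosslinker alpha-actinin, had 224, 236, 224 and 231 CPM with DMSO and 335, 339, 331 and 329 CPM with NEL, 1.46-fold higher (adjusted p = 1.94e-09). The formin FMNL1 had 119.7, 115, 109 and 120.0 CPM and then 79.4, 79.1, 75.3 and 75.9 CPM, 1.5-fold lower (adjusted p = 2.26e-08), and the abundant membrane linker MSN, moesin, fell 1.29-fold.

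Among intermediate filament, lamin, spectrin and ankyrin genes, 8 rose and 11 fell of 25. The nuclear envelope genes LBR and SUN2 fell 1.31-fold and 1.29-fold, while SYNE3, another nuclear envelope linker, rose 2.42-fold from 3.41 ± 0.491 to 8.29 ± 0.954 CPM.

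Genes that act on RNA and protein synthesis fell more often than they rose, by small amounts. Of 54 SR and hnRNP splicing genes, 32 fell and 4 rose (median -0.18). HNRNPR had 378, 417, 364 and 398 CPM with DMSO and 244, 282, 251 and 272 CPM with NEL, 1.48-fold lower (adjusted p = 3.18e-07), and the splicing regulator MBNL1 fell 1.32-fold from 596 ± 9.65 to 450.4 ± 3.85 CPM. The epithelial splicing factor ESRP1 rose 1.85-fold from 3.78 ± 0.323 to 6.998 ± 0.496 CPM, and RBFOX2 1.54-fold. Translation factors fell in 21 (45.7%) and rose in 2 (4.35%) of 46 cases (median -0.14). There were 30 lower and 6 higher under the replicate block and 14 and 6 on the RPKM scale. The fall of 45.7% stands near the 41.4% among the 2850 genes of highest mean CPM. EIF3E, a subunit of the eIF3 complex, fell 1.34-fold from 761 ± 22.4 to 567 ± 16.3 CPM, and EIF2B3, part of the exchange factor of eIF2, rose 1.43-fold.

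Of 40 aminoacyl-tRNA synthetases, 20 fell and 3 rose (median -0.13), and on the RPKM scale 17 fell and 6 rose. GARS1, for glycine, had 446, 449.8, 441 and 447 CPM with DMSO and 262, 299, 276 and 298 CPM with NEL, 1.57-fold lower (adjusted p = 2.67e-09). WARS1, for tryptophan, which interferon also induces, had 269.6, 275, 276 and 263 CPM and then 408, 402, 398 and 395 CPM, 1.48-fold higher (adjusted p = 8.32e-10). Host genes of small nucleolar RNAs fell in 16 and rose in 3 of 27 cases (median -0.29). SNHG8 fell 1.72-fold from 65.7 ± 4.01 to 38.3 ± 2.21 CPM, and SNHG3, which overlaps RCC1 on the same strand and so cannot be counted alone with certainty, 1.9-fold. The proteasome list had 12 lower and 5 higher genes of 46, or 14 and 8 under the replicate block and 10 and 8 on the RPKM scale.

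Genes of histone-modifying enzymes and bromodomain proteins also fell more often than they rose. Of 64 Polycomb, MLL and histone lysine enzymes, 35 fell and 9 rose (median -0.16), and 24 and 14 on the RPKM scale. KMT2C, a histone H3 methyltransferase, had 204, 214, 206 and 202 CPM with DMSO and 159.6, 151, 159.6 and 156 CPM with NEL, 1.32-fold lower (adjusted p = 1.90e-07), and the demethylase KDM4C fell 1.49-fold from 54.6 ± 1.38 to 36.7 ± 2.86 CPM. PSIP1, a chromatin reader that tethers MLL complexes, and the methyltransferase NSD3 rose 1.2-fold and 1.16-fold. Deacetylase, acetyltransferase and bromodomain genes fell in 19 (46.3%) and rose in 8 (19.5%) of 41 cases (median -0.10). These shares stand near the 41.4% lower and 21.3% higher among the 2850 genes of highest mean CPM. BRD2, a bromodomain reader, and the coactivator NCOA2 fell 1.3-fold and 1.3-fold, and HAT1, which acetylates new histones, rose 1.32-fold from 95.7 ± 6.36 to 126 ± 7.74 CPM.

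Linker and variant histones fell in 12 of 15 cases, with a median of -0.34, and the other 3 did not pass the test. Of those that fell, 3 did so at least 2-fold. Besides H1-10, MACROH2A1, a variant of repressed chromatin, had 1054, 1058, 1046 and 1069 CPM with DMSO and 838, 827, 830.0 and 848 CPM with NEL, 1.26-fold lower (adjusted p = 1.37e-07). Many replication-dependent histone transcripts lack a poly(A) tail, and the libraries were made from polyadenylated RNA, so the list covers mainly the tailed transcripts. DNA methylation genes were balanced, at 7 higher and 7 lower of 22, or 8 and 3 on the RPKM scale. IDH2, the mitochondrial isocitrate dehydrogenase, had 61.8, 57.8, 65.5 and 63.3 CPM and then 116, 116, 119 and 124 CPM, 1.91-fold higher (adjusted p = 1.92e-10), and TET1, which oxidises methylcytosine, fell 1.37-fold from 30.9 ± 1.28 to 22.6 ± 0.718 CPM.

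Nuclear genes of the respiratory chain fell more often than they rose. Of 78 subunits, 28 fell and 5 rose (median -0.13), and 41 and 8 with the replicate block or 21 and 8 on the RPKM scale. Among the 2850 genes of highest mean CPM 41.4% fell and 21.3% rose, against 35.9% and 6.41% of these subunits. ATP5F1A, a catalytic subunit of ATP synthase, had 465, 481, 454 and 488 CPM with DMSO and 363, 390.1, 384 and 399 CPM with NEL, 1.23-fold lower (adjusted p = 6.34e-06), and ATP5MC2, of its rotor ring, fell 1.43-fold. Mitochondrial ribosomal proteins fell in 23 (31.1%) and rose in 7 (9.46%) of 74 cases (median -0.05). The counts were 30 and 12 under the replicate block, and the median changed sign on the RPKM scale. MRPS28 fell 1.69-fold from 15.2 ± 1.3 to 9.001 ± 0.575 CPM, and MRPL37 rose 1.28-fold from 127 ± 4.49 to 161 ± 10.9 CPM. The share of counts from mitochondrial DNA was lower with NEL than with DMSO in the library of the same number in all 4 pairs, and its part in these results was not tested.

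Genes of carbon and amino acid metabolism moved in both directions. Of 46 glycolysis and pentose phosphate genes, 11 rose and 14 fell (median -0.05), and the balance turned to 15 higher and 9 lower on the RPKM scale. GPI, the second enzyme of glycolysis, had 628, 611, 614 and 606 CPM with DMSO and 424, 435, 444 and 434 CPM with NEL, 1.42-fold lower (adjusted p = 2.59e-09). PYGL, which breaks down glycogen, had 33.6, 36.1, 36.5 and 34.95 CPM and then 65.2, 73.4, 75.1 and 77.1 CPM, 2.06-fold higher (adjusted p = 7.45e-10), while GBE1, which branches glycogen, fell 1.43-fold from 305 ± 6.16 to 214 ± 1.96 CPM. Of 36 polyamine, glutamine and arginine genes, 6 rose and 11 fell, and 9 and 7 on the RPKM scale. The amino acid transporters SLC38A1 and SLC38A2 fell 1.44-fold and 1.34-fold, from 661 ± 12.9 to 460.0 ± 15.4 CPM and from 394 ± 4.11 to 294 ± 6.95 CPM.

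Lysosomal genes leaned up. Of 49 tested, 19 rose and 6 fell (median 0.07), or 20 and 3 by the DESeq2 test. NPC1, the cholesterol exporter of lysosomes, had 42.5, 42.4, 42.4 and 42.6 CPM with DMSO and 70.9, 69.2, 65.4 and 68.2 CPM with NEL, 1.61-fold higher (adjusted p = 8.13e-09), and CTSW, a cathepsin of cytotoxic cells, rose 1.51-fold from 262 ± 12.7 to 395 ± 9.95 CPM. NAGLU, a lysosomal hydrolase, fell 1.48-fold. Of 19 subunits of the vacuolar proton pump, which acidifies lysosomes, 5 rose and 1 fell, or 7 and 4 with the replicate block, and TCIRG1 rose 1.6-fold. Autophagy genes numbered 11 higher and 10 lower of 44, or 17 and 11 with the replicate block and 16 and 6 on the RPKM scale. SQSTM1, the autophagy receptor p62, rose 1.3-fold from 89.8 ± 2.28 to 117 ± 2.54 CPM, and NBR1, another receptor, fell 1.26-fold. Antioxidant and NRF2 target genes rose in 16 and fell in 5 of 48 cases (median 0.07), or 21 and 8 with the replicate block and 21 and 2 on the RPKM scale, and ABCC5, an efflux pump of nucleotide analogues among other anions, rose 1.56-fold from 33.4 ± 1.03 to 52.1 ± 1.49 CPM.

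The lists of BCL2 family and caspase genes, of p53 targets and of matrix genes leaned up. Of 39 BCL2 family and caspase genes, 16 rose and 4 fell (median 0.13), or 20 and 7 with the replicate block. BIRC3, an inhibitor of apoptosis and target of NF-kB, had 81.9, 87.8, 79.5 and 85.03 CPM with DMSO and 127, 134, 137 and 139 CPM with NEL, 1.61-fold higher (adjusted p = 3.42e-09). CASP4, an inflammatory caspase, rose 1.32-fold from 331 ± 15.2 to 437 ± 16.2 CPM, and BCL2 fell 1.21-fold from 246 ± 6.32 to 204 ± 1.65 CPM. Of 28 p53 targets, 11 rose and 3 fell (median 0.08), and 2 reached 2-fold. DDB2, a damage sensor of nucleotide excision repair, rose 1.42-fold from 42.9 ± 1.84 to 60.99 ± 3.07 CPM, and CCNG1, another target, fell 1.23-fold from 215 ± 6.82 to 175 ± 4.11 CPM.

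Matrix proteins and extracellular proteases rose in 25 and fell in 2 of 45 tested cases (median 0.31), and 7 of the increases reached 2-fold. Only 45 of 83 listed genes passed the filter, and a gene that passed only through its NEL libraries had to be higher. ADAM15, a membrane protease, had 31.02, 29.5, 31.3 and 30.99 CPM with DMSO and 54.1, 59.8, 50.6 and 55.05 CPM with NEL, 1.79-fold higher (adjusted p = 1.11e-08). SPARC, a collagen-binding matrix protein, had 37.6, 33.6, 30.2 and 31.5 CPM and then 62.2, 61.7, 61.8 and 57.5 CPM, 1.83-fold higher (adjusted p = 1.64e-08). The 8 fibroblast and epithelial markers summed to 1.21 to 1.48 CPM with DMSO and 2.03 to 2.58 with NEL, nearly all from COL3A1, and 6 of them were at 0 in every library.

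The largest differences in CPM lay among abundant transcripts. PABPC1, the poly(A)-binding protein of the cytoplasm, had 5207, 5145, 4950.4 and 5033 CPM with DMSO and 3690.4, 3647, 3479 and 3422 CPM with NEL, a 1.43-fold fall (adjusted p = 6.18e-09) and the largest loss in CPM among called non-overlapping genes outside ribosomal protein and mitochondrial genes. EEF2, the elongation factor that moves the ribosome, had 5119, 5303, 5146 and 5343 CPM and then 4034, 4287, 4032 and 4192 CPM, 1.26-fold lower. PTMA, prothymosin alpha, fell 1.66-fold from 1795 ± 52.7 to 1083 ± 36.03 CPM, and RAD21, the cleavable subunit of cohesin, 1.5-fold from 1315 ± 73.7 to 876 ± 48.03 CPM. ACTB fell 1.33-fold, GAPDH 1.22-fold, HNRNPA2B1 1.36-fold and the nucleolar protein NCL 1.36-fold. PABPC1, PTMA, GAPDH and HNRNPA2B1 have processed pseudogenes or close copies, so their counts depend on how shared reads were assigned.

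Among the largest gains, CALR, the calcium-binding chaperone of the endoplasmic reticulum, had 1286, 1262, 1295 and 1238 CPM with DMSO and 1758, 1705, 1754 and 1691 CPM with NEL, 1.36-fold higher (adjusted p = 1.17e-08). TUBB, the main beta-tubulin, rose 1.31-fold from 1375 ± 53.6 to 1795 ± 132 CPM, with the odd-numbered libraries above the even-numbered ones in both groups. FAM111A, a protease that acts at replication forks, and ATAD2, a bromodomain ATPase, rose 1.49-fold and 1.57-fold. MYBL2, a transcription factor of cycling cells, rose 2.29-fold from 191 ± 3.87 to 437 ± 8.54 CPM. IL32, a cytokine gene of lymphoid cells, had 559, 454, 557 and 455 CPM with DMSO and 823, 631, 779 and 600.5 CPM with NEL, and the odd-numbered libraries were again the higher. Its log2 fold change was 0.48 ± 0.13 (adjusted p = 0.0215), with adjusted p = 0.056 without DMSO library 2 and 0.052 without DMSO library 4.

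A few genes were nearly silent with DMSO and detectable with NEL. They were chosen for a mean under 0.5 CPM with DMSO and at least 2 CPM with NEL. They passed the low-count filter through their NEL libraries, so their increase follows from the choice and is no support of its own. IL4I1, a secreted amino acid oxidase, had 0.285, 0.187, 0.374 and 1.01 CPM with DMSO and 5.07, 4.68, 4.7 and 4.41 CPM with NEL (log2 3.30 ± 0.29, adjusted p = 1.13e-07), but it overlaps NUP62 on the same strand. IL7R, the interleukin 7 receptor chain, had 0.285, 0.373, 0.374 and 0.461 CPM and then 2.81, 1.94, 2.49 and 2.97 CPM (log2 2.73 ± 0.29, adjusted p = 9.04e-07). DAPK2, a death-associated kinase, had 0.19, 0.467, 0.561 and 0.646 CPM and then 2.63, 3.27, 3.04 and 2.61 CPM (adjusted p = 1.08e-06). DPEP1, a membrane dipeptidase, and LRRN1, a leucine-rich repeat protein, went from 0.444 ± 0.319 to 3.47 ± 0.591 CPM and from 0.352 ± 0.164 to 2.58 ± 0.297 CPM. TIMM23B, which has a near-identical copy, had 0, 1.59, 0.0934 and 0 CPM and then 2.9, 2.65, 1.94 and 1.62 CPM, with DMSO library 2 just below the lowest NEL library. Its adjusted p of 0.0301 rose to 0.0675 without DMSO library 3, 0.0698 without NEL library 1 and 0.0644 without NEL library 2. Leaving out unnamed loci and clone, microRNA, small nucleolar RNA, antisense and orf names, no gene at 2 CPM or more with DMSO fell below 0.5 CPM with NEL.

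U937 was used only to ask which of these changes differed between the lines. In the edgeR interaction test over all 16 libraries, 4216 of 16117 genes (26.2%) had a higher and 3396 (21.1%) a lower log2 fold change in KG1A than in U937. Of the KG1A genes tested, 713 (5%) rose in KG1A and fell in U937 with a called difference, and 702 (4.93%) did the reverse. TUBA4A rose in KG1A and had a log2 fold change of -0.35 ± 0.05 in U937, a difference of 2.70 ± 0.09 (adjusted p = 1.22e-17). NRP1 was at 0.22 ± 0.10 in U937 (difference 2.25 ± 0.15, adjusted p = 1.27e-11), ICAM1 at 0.07 ± 0.05 (difference 1.03 ± 0.08, adjusted p = 3.65e-11) and MYO7A at 0.24 ± 0.08 (difference 2.12 ± 0.18, adjusted p = 7.63e-10). In contrast, ITGAM rose in U937 by 2.61 ± 0.08, and its difference of -0.28 ± 0.18 did not pass (adjusted p = 0.225). H1-10 fell in U937 too, at -1.23 ± 0.06, with a difference of -0.04 ± 0.09 (adjusted p = 0.771). TIE1, HDC, KIT and CD34 were not tested within U937, where their counts were too low.

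Some genes rose in KG1A while falling in U937, and others did the reverse. EFNB2, the ephrin B2 ligand, had 8.63, 7.37, 6.54 and 5.35 CPM in KG1A with DMSO and 14.5, 16.8, 14.7 and 13.96 CPM with NEL, a log2 fold change of 1.10 ± 0.12 against -1.17 ± 0.18 in U937 (difference adjusted p = 8.44e-09). AKAP5, a kinase anchor, stood at 1.07 ± 0.10 against -1.07 ± 0.19, the nuclease ANKLE1 at 1.48 ± 0.20 against -0.95 ± 0.06, the surface receptor SLAMF8 at 0.93 ± 0.18 against -1.50 ± 0.06, and GPR84, a receptor for medium-chain fatty acids, at 1.12 ± 0.13 against -0.92 ± 0.16. In the opposite pattern, BTN3A1, a butyrophilin that gamma-delta T cells recognise, had 41.6, 40.8, 45.03 and 39.7 CPM in KG1A with DMSO and 24.99, 24.2, 23.6 and 25.8 CPM with NEL, -0.76 ± 0.06 against 1.20 ± 0.08 in U937. LDLRAD4, an inhibitor of TGF-beta signalling, stood at -0.99 ± 0.07 against 0.77 ± 0.12, TCP11L2 at -1.44 ± 0.17 against 2.39 ± 0.27, AMZ1 at -0.93 ± 0.08 against 1.85 ± 0.34 and PPP1R32 at -1.10 ± 0.11 against 1.42 ± 0.15. BTN3A1 has close copies, and PPP1R32 overlaps another gene on the same strand.

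**Figure D5:**
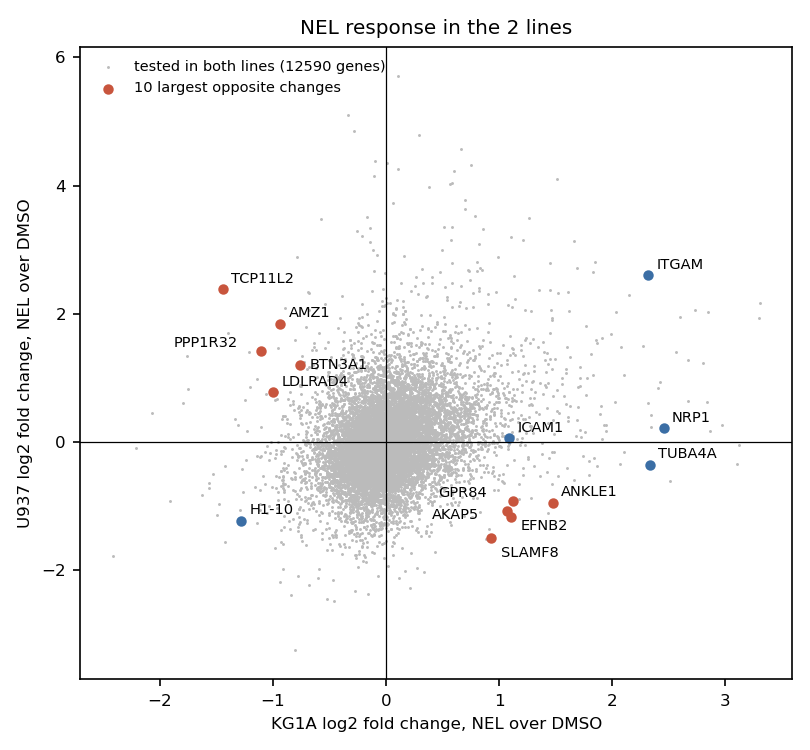
Log2 fold change of NEL over DMSO in KG1A (horizontal axis) and U937 (vertical axis) for the 12590 genes tested in both lines, with red for the 10 largest opposite changes and blue for NRP1, TUBA4A, ICAM1, ITGAM and H1-10. NRP1, TUBA4A and ICAM1 lie to the right, with U937 values between -0.35 and 0.22, while ITGAM and H1-10 moved the same way in both lines.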

How the data were processed

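Polyadenylated RNA of KG1A and U937 cells given NEL or DMSO was sequenced with a stranded kit, 4 libraries a group, per the labels. The authors deposited whole-number counts per gene and, separately, RPKM values, which scale the authors' reads by gene length and library total. The submitters' processing notes name bcl2fastq 2.18.0.12, TopHat2, HTSeq 0.11.2 and the build hg19. No source used here names the annotation.

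The main test was edgeR 4.0.16 (R 4.3.3) on the deposited counts of the 8 KG1A libraries, with TMM factors, filterByExpr (minimum count 10, minimum total 15), robust quasi-likelihood fits and Benjamini-Hochberg adjusted p-values over all 14250 tested genes, called under 0.05. Every adjusted p in the report is from this test unless another is named. The difference between lines was the interaction term over all 16 libraries. The code was tested on simulated data. Symbols were found for 24496 gene IDs, and positions are hg19. Promoters came from RefSeq (GRCh38.p14).

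Named genes were the 12 largest changes each way among called, non-overlapping genes reaching 5 CPM, the 8 largest differences in CPM each way, at most the 2 called members of smallest p each way per list, the 5 largest opposite changes each way between lines, up to 6 genes going from under 0.5 to at least 2 CPM, and CD34, KIT, ITGAM, TIE1, NRP1, TUBA4A and ICAM1. Single genes of the S phase and of deoxynucleotide metabolism were mostly left out of the report. Some genes tied to replication or cycling, such as FAM111A, HAT1 and MYBL2, are given where these rules chose them. MCM4 is given where single libraries stand apart. CD33 was added after its values were seen. Some genes and 1 gene list are not reported here. The members, lists and rule were chosen with earlier results of these data known.

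The deviations of same-numbered NEL and DMSO libraries from their group means correlated at 0.434, 0.375, 0.355 and 0.406, and the number was used as a block in 1 alternative. Differently numbered libraries of the same odd or even set correlated nearly as well, at 0.337 to 0.387, so these values show the sets and do not show pairing by number within a set. No label explains either. Alternatives were other scalings, filters and tools (DESeq2 1.42.0, limma 3.58.1 on counts and on log2 of RPKM plus 0.5 or 0.1), a stricter threshold, the replicate block, the library sets, and each library left out. The fit without robust estimation, and leaving libraries out of the interaction, were added after seeing the data.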

Additional observations from a re-analysis of the deposited data

Results flagged for a closer look

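In 6 of 116 groups of 4 libraries of the named genes, 1 library stood far from the other 3, and chance flags about 1 in 20 such groups. These were TIE1 in NEL library 1 (13.4 CPM), DEPTOR in DMSO library 1 (5.03 CPM), SLAMF8 in NEL library 4 (5.59 CPM), TIMM23B in DMSO library 2 (1.59 CPM) and MCM4, a helicase subunit of the S phase, in DMSO library 1 (578 CPM) and NEL library 4 (888 CPM).

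The log2 fold change differed between the lines by edgeR's interaction test for 23 of the named genes. Only genes chosen for the largest changes, for opposite changes, and CD34, KIT, ITGAM, TIE1, NRP1, TUBA4A and ICAM1 were checked. Over all genes tested, 26.2% had a higher and 21.1% a lower log2 fold change in KG1A. The genes with opposite changes were chosen by a called difference, so their result was fixed in advance. The KG1A value exceeded the U937 value by 2.70 for TUBA4A, 2.25 for NRP1, 2.23 for DBNDD1, 2.12 for MYO7A, 1.42 for PREX1, 1.40 for SHE, 1.07 for SLC45A3 and 1.03 for ICAM1. Among genes that moved in opposite directions, the difference was 2.44 for SLAMF8, 2.43 for ANKLE1, 2.28 for EFNB2, 2.15 for AKAP5 and 2.05 for GPR84. The KG1A minus U937 difference was -3.82 for TCP11L2, -2.77 for AMZ1, -2.51 for PPP1R32, -1.95 for BTN3A1 and -1.76 for LDLRAD4. It was -1.57 for DEPTOR, -1.015 for PSRC1, -0.95 for EPM2A, -0.84 for DPH6 and -0.45 for HDDC3. In the odd-numbered libraries alone, the differences of SLC45A3, DPH6 and HDDC3 did not pass edgeR's test.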

How the results depend on the processing

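The counts of genes higher and lower with NEL stayed within 1.5 times of 3369 and 3360 under every alternative run. Leaving out 1 library gave 3108 to 3229 higher and 3024 to 3188 lower genes, DESeq2 gave 3011 and 2911, and an adjusted p under 0.01 left 2539 and 2411. With the replicate number as a block, 4115 genes were higher and 4242 lower. The block kept the calls of all 225 named genes and moved no list count by over 1.5 times beyond those given in the report. On the deposited RPKM scale 64.5% of the calls were increases, against 50.1% of the main calls, with 4106 higher and 2263 lower, and the median over tested genes was 0.053. The number of genes whose NEL effect differs between KG1A and U937 was 7612, ran from 7354 to 7437 without 1 library and from 6072 to 8813 over all alternatives. No called NEL effect of a named gene in KG1A changed sign under these alternatives. Calls were lost in some settings by CD34, KIT, TIMM23B and IL32, given in the report, and by SMAD4, NDUFV1, XPC, ATP6V1B2, ATP6V1E1, SMURF2, TUBB1, LAMA5, IL17RA, THBS3 and TXNRD2, and the cause was not tested. Genes under about 5 CPM had few counts per library, which limits the precision of their fold changes.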

Other observations

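Genes of iron, lipids and hypoxia, which belong to no comparison above, went both ways in KG1A. Of 40 iron and heme genes tested, 14 rose and 10 fell, or 15 and 6 on the RPKM scale, and the median of -0.0005 changed sign with the scaling. TFRC, the transferrin receptor that takes up iron, had 245, 259, 257 and 254 CPM with DMSO and 187, 195, 190.4 and 190.3 CPM with NEL, 1.33-fold lower (edgeR adjusted p = 6.70e-08). FTL, the ferritin light chain that stores iron, fell 1.21-fold from 1025 ± 19.2 to 845 ± 21.8 CPM. CYBRD1, a ferric reductase, and HMOX1, which degrades heme, rose 1.58-fold and 3.39-fold, from 30.3 ± 2.53 to 47.99 ± 1.56 CPM and from 1.43 ± 0.234 to 4.86 ± 0.566 CPM.

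Of 59 lipid and sphingolipid genes, 20 rose and 13 fell, or 24 and 6 on the deposited RPKM scale. PLIN2, a coat protein of lipid droplets, had 59.3, 61.98, 59.8 and 63.2 CPM with DMSO and 92.8, 87.8, 92.6 and 93.4 CPM with NEL, 1.5-fold higher (edgeR adjusted p = 2.31e-08), and CPT1A, which admits fatty acids to mitochondria, fell 1.12-fold from 412 ± 3.04 to 366 ± 8.71 CPM. Of 36 hypoxia response genes, 11 rose and 8 fell. ARRDC4, an arrestin-like regulator of glucose uptake, rose 1.95-fold from 15.8 ± 1.3 to 30.9 ± 0.511 CPM, and BNIP3L, a mitophagy receptor, fell 1.18-fold from 288 ± 8.34 to 244 ± 3.61 CPM.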
